A study of Mus musculus with 12 samples.

Results

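The hepatocyte transcription factors studied here were 9 genes: Onecut1, Onecut2, Hhex, Foxa1, Foxa2, Foxa3, Hnf4a, Cebpa and Prox1. They were chosen by symbol, with the fold changes of hCAR/hPXR against WT mice under CITCO already known, out of 51912 genes in the count table and 17859 in the transformed table. All 9 were among the 8594 genes that were tested. RNA from the livers of 12 adult male mice was sequenced, 3 per group, each library from 1 mouse. One group was WT mice given corn oil. Mice of the other groups, which were WT, Car KO/hPXR or hCAR/hPXR, received CITCO, an activator of human CAR, intraperitoneally at 10 mg/kg. Injections were daily over 4 days and the animals were killed on day 5. The hCAR/hPXR mice have human CAR and PXR in place of the mouse receptors, and the Car KO/hPXR mice have no Car and carry human PXR. Both humanised lines were made in C57BL/6NTac mice. Corn oil libraries were analysed here for WT mice alone, so the response of either humanised genotype to CITCO and the effect of the genotype cannot be told apart.

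These proteins bind DNA and set the hepatocyte programme. The FOXA factors open chromatin in the early endoderm, HHEX and PROX1 direct the growth and migration of the first liver cells, and ONECUT1 and ONECUT2 govern the choice between hepatocyte and bile duct fates. HNF4A and C/EBPα then hold the mature state by driving genes of lipid, glucose and plasma protein metabolism, and many of these factors bind each other's promoters. All of them are still made in the adult liver, Hhex and Prox1 in some endothelial cells as well as in hepatocytes.

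Onecut1, Hhex and Foxa2 were higher in WT mice given CITCO than in WT mice given corn oil, by 8.99-fold, 3.44-fold and 2.17-fold. Under 12 alternative fits Onecut1 passed the test in all 12, and Hhex and Foxa2 each passed in 5. WT mice given CITCO were also part of the comparison known when the members were chosen. Foxa2 was also 2.15-fold higher in Car KO/hPXR than in hCAR/hPXR mice, both given CITCO, and passed there in 7 of 12 alternatives. Onecut1 ranged over 18.9-fold between the lowest and the highest of the 12 libraries, Foxa1 over 12.9-fold and Hhex over 9.41-fold. The range of Foxa1 rests on few counts, between 3 and 26 per library. Hnf4a ranged over 1.72-fold, Onecut2 over 1.77-fold and Foxa3 over 1.84-fold, and none of these 3 passed the test in any comparison. Prox1 was lowest in WT mice given CITCO, the group where Onecut1 and Hhex were highest.

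Libraries held between 1167008 and 2341557 counts, so that 3 counts stood for between 1.34 and 2.51 CPM (the count of a gene scaled to library size by edgeR's TMM method, and the unit of every level given here). Reads were counted on mouse genes. Nr1i2, the gene of PXR, had between 100 and 199 counts in the 6 WT libraries and at most 2 in the 6 humanised ones. Nr1i3, the gene of CAR, had between 104 and 287 counts in WT and at most 6 in humanised libraries, which separates WT from humanised libraries as labelled but does not tell hCAR/hPXR from Car KO/hPXR mice. All 10 hepatocyte markers checked, such as Alb, were detected. Their summed level was between 40600 and 46400 CPM in WT corn oil and between 40200 and 49300 CPM in WT CITCO libraries. It was between 42700 and 45900 CPM in Car KO/hPXR mice. The hCAR/hPXR libraries lay between 31400 and 49400 CPM, with a median of 33400 CPM. In bulk liver, fewer cells of a type and less RNA per cell cannot be told apart.

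Differences were tested by edgeR's quasi-likelihood method, with p adjusted after Benjamini and Hochberg over the 8594 genes. A gene was called where its fold change exceeded 1.5 at an adjusted p under 0.05. No test is given for hCAR/hPXR against WT mice under CITCO, the comparison known when the members were chosen. Of the 5 comparisons tested, Car KO/hPXR CITCO against WT corn oil shares no library with that comparison. The other 4 each share a group with it, so their p-values and counts of members are not independent of the choice.

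Reads come from transcript 3' ends and so fall mainly in the last exon. On GRCm38 (GENCODE M21), Onecut1 lies at chr9:74861921-74891781 on the plus strand, Hhex at chr19:37434810-37440731 (plus), Foxa1 at chr12:57540628-57546916 (minus) and Foxa2 at chr2:148042877-148046969 (minus). Foxa3 lies at chr7:19013284-19023538 (minus), Hnf4a at chr2:163506808-163572910 (plus), Cebpa at chr7:35119293-35121928 (plus) and Prox1 at chr1:190118035-190170714 (minus). A long noncoding gene on the same strand, Gm20649, shares 2171 of the 2476 bases of the last exon of Onecut1, and reads there could be split between both. Gm20649 held between 0 and 2 counts per library, against 11 to 222 for Onecut1. Antisense genes overlap Hnf4a, Cebpa and Prox1. Of these only Gm45091, at 0 counts in every library, reaches into a last exon, that of Cebpa.

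The upstream sequences of 4 members are shown because Onecut1 and Hhex moved over a wide range, and because Foxa2 and Hnf4a each carry, in their most upstream window, a match to ATCAAT, a core of the sequence bound by ONECUT proteins. The sequences come from RefSeq windows on GRCm38.p6, which were found for 8 of the 9 members, and end at the base before the gene's start in GENCODE. The regions are chr9:74861671-74861920 (plus strand) for Onecut1, chr19:37434591-37434809 (plus) for Hhex, chr2:148046970-148047219 (minus) for Foxa2 and chr2:163506607-163506807 (plus) for the upstream one of 2 Hnf4a start sites. Capitals mark ATCAAT or its reverse complement ATTGAT.
Onecut1: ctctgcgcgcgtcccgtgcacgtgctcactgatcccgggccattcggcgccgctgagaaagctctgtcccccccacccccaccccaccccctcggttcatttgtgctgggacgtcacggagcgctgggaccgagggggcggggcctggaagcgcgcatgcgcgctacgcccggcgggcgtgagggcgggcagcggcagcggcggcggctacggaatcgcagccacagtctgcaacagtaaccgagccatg
Hhex: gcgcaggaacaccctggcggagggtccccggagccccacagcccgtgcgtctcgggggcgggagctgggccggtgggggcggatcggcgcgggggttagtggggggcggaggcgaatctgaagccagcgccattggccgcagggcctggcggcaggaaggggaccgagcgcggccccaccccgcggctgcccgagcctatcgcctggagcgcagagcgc
Foxa2: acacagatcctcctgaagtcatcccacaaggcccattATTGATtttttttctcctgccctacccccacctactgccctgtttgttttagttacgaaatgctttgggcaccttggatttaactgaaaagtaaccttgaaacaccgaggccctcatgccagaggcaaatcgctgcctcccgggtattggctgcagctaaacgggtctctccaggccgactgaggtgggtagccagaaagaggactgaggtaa
Hnf4a: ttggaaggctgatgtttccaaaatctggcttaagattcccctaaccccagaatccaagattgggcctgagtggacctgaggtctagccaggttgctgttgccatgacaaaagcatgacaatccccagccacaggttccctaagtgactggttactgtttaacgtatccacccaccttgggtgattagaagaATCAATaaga
Counted back from the end of the printed sequence, the match began at position -213 for Foxa2 and at -10 for Hnf4a. The Hnf4a position is -59 from the RefSeq start, which lies inside the GENCODE gene. The match stands in 1 of 3 RefSeq windows of Foxa2 and in 1 of 2 of Hnf4a, and the window shown is the most upstream. ATCAAT on either strand occurred in 6.72% of 32851 windows of 250 bases. The windows of Onecut1 and Hhex held 71.6% and 76.0% G and C, against a median of 52.4% over all windows, and held no match to any motif searched. Besides ATCAAT, the motifs searched on both strands were for FOXA proteins TGTTTAC and, as a second form, TATTTAC, for C/EBP factors TTGCGCAA, for HNF4A itself CAAAGTCCA, for HHEX protein CAATTAA and for the TATA box TATAAA. They occurred in 3.17%, 2.73%, 0.164%, 0.384%, 2.31% and 12.4% of windows, in that order. Foxa1 held TGTTTAC at -141 from its RefSeq start, and a window each of Foxa2 (not the one shown), Foxa3, Cebpa and Prox1 held the TATA box letters. A match describes letters and was not tested for binding.

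Onecut1 encodes a cut homeodomain protein, also called HNF6, that acts in hepatocytes and in bile duct formation. Its level in the corn oil libraries was 7.61, 7.76 and 23.55 CPM. In WT mice given CITCO it was 144, 113 and 90.05 CPM. All 3 of these lie above every other library of the study. In hCAR/hPXR mice it was 37.3, 19.7 and 26.7 CPM and in Car KO/hPXR mice 47.6, 41.8 and 43.5 CPM, so the order of group levels was WT corn oil, hCAR/hPXR, Car KO/hPXR and WT CITCO. The lowest pair in that order overlapped and each later step did not.

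In WT mice Onecut1 rose with CITCO from 12.97 ± 9.16 to 115.8 ± 27.1 CPM (SD, n = 3), a log2 fold change of 3.17 with a standard error (SE) of 0.338 (edgeR's quasi-likelihood test, adjusted p = 0.000195). Without corn oil replicate 3, the highest of its group, the log2 fold change was 3.90. The level in Car KO/hPXR mice was 44.3 ± 3.03 CPM (SD, n = 3). Against WT corn oil this gave a log2 fold change of 1.79 with a 95% interval of 1.05 to 2.53, which did not pass the test (edgeR's quasi-likelihood test, adjusted p = 0.114), although the libraries did not overlap. It passed in 3 of 12 alternatives, which were without corn oil replicate 3 (log2 fold change 2.52, adjusted p = 0.00255), with DESeq2 (adjusted p = 0.00297) and without the filter on low counts. The adjusted p under the other alternatives reached 0.607.

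Car KO/hPXR mice had a lower Onecut1 level than WT mice under CITCO, at a log2 fold change of -1.38 with an interval of -2.01 to -0.75 (edgeR's quasi-likelihood test, adjusted p = 0.0607). This comparison passed in 5 of 12 alternatives, among them DESeq2 (adjusted p = 0.00435), and without WT CITCO replicate 3 (adjusted p = 0.0332). Between hCAR/hPXR mice and WT corn oil the log2 fold change was 1.13, from 0.37 to 1.88 (edgeR's quasi-likelihood test, adjusted p = 0.194), and 1.86 without corn oil replicate 3 (adjusted p = 0.0232). Against Car KO/hPXR mice the hCAR/hPXR value was -0.66, from -1.34 to 0.02. Against WT mice given CITCO, the comparison used in choosing, the hCAR/hPXR level was 4.12-fold lower, a log2 fold change of -2.04.

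**Figure D1:**
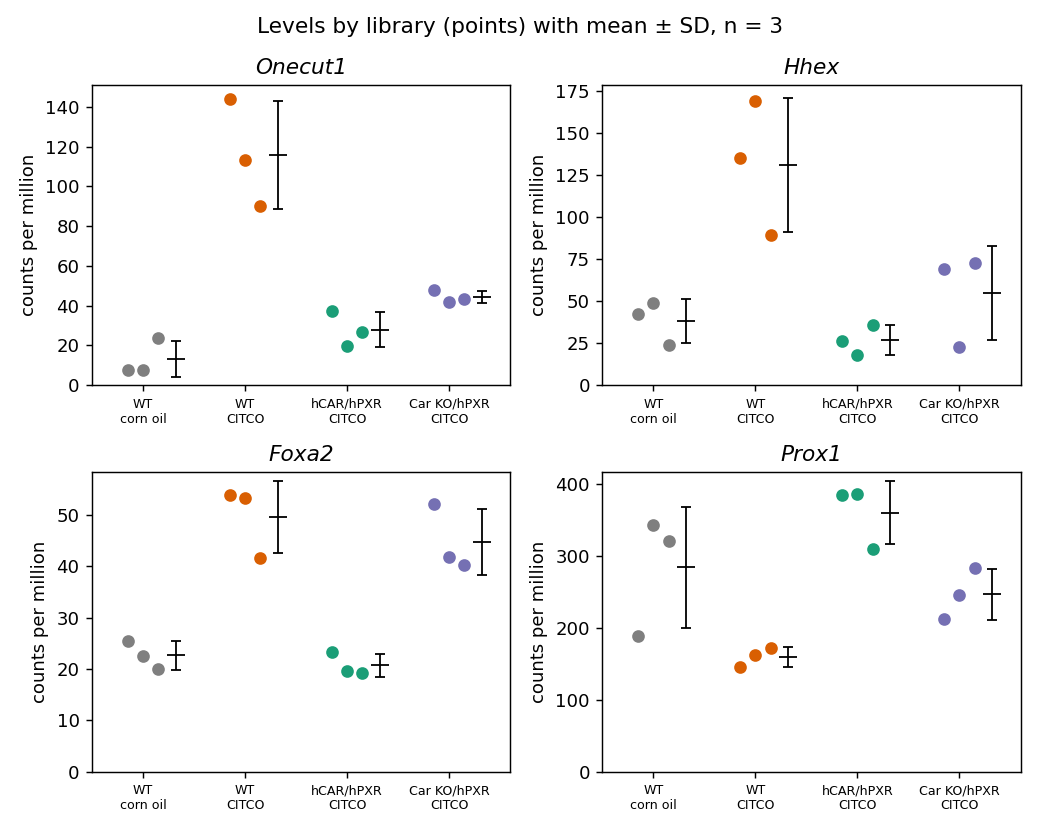
Levels of Onecut1, Hhex, Foxa2 and Prox1 in CPM (vertical axes, from 0) in each of the 12 libraries (coloured points), with the mean and SD of each group of 3 beside them in black. Onecut1 and Hhex were highest in the 3 libraries of WT mice given CITCO, Prox1 was lowest there, and Foxa2 was high in both WT and Car KO/hPXR mice given CITCO.

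Onecut2, the paralog of Onecut1 with a similar DNA-binding domain, varied little. It lies at chr18:64340020-64400987 on the plus strand. Its mean level was 117.1 ± 27.8 CPM in corn oil, 150.8 ± 7.81 in WT mice given CITCO, 121.8 ± 8.59 in hCAR/hPXR and 101.8 ± 8.76 in Car KO/hPXR mice (SD, n = 3). The highest corn oil library, at 145.3 CPM, overlapped the WT CITCO libraries, which lay between 142.7 and 158.3 CPM. The log2 fold change with CITCO in WT mice was 0.37, from 0.02 to 0.73 (edgeR's quasi-likelihood test, adjusted p = 0.524). Car KO/hPXR and WT libraries under CITCO did not overlap, at a log2 fold change of -0.57 (edgeR's quasi-likelihood test, adjusted p = 0.21).

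Hhex encodes a homeobox protein of early liver and endothelial development that mostly represses transcription. In the corn oil libraries it stood at 42.1, 48.6 and 23.55 CPM. In WT mice given CITCO it stood at 135, 169 and 89.3 CPM. Every one of the latter was above every other library. The hCAR/hPXR libraries, at 25.9, 17.9 and 35.9 CPM, overlapped the corn oil group. The Car KO/hPXR libraries were split, with 69.3 and 72.3 CPM in replicates 1 and 3 and 22.5 CPM in replicate 2.

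Hhex rose with CITCO in WT mice, from 38.1 ± 13.02 to 131 ± 39.8 CPM (SD, n = 3), a log2 fold change of 1.78 with SE 0.348 (edgeR's quasi-likelihood test, adjusted p = 0.034). The call was lost in 5 of the 6 fits that left out 1 library (adjusted p from 0.1 to 0.232) and kept without WT CITCO replicate 3 (adjusted p = 0.0146). It was also lost with limma on the deposited values (adjusted p = 0.0602). In Car KO/hPXR mice, Hhex was below WT mice under CITCO by a log2 fold change of -1.25, with an interval of -1.97 to -0.53 (edgeR's quasi-likelihood test, adjusted p = 0.157), and at -0.89 without Car KO/hPXR replicate 2. Against WT corn oil the Car KO/hPXR value was 0.53, from -0.23 to 1.29. In the comparison used in choosing, hCAR/hPXR mice were 5.01-fold below WT mice.

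Prox1, a homeobox factor of hepatoblast growth and of lymphatic vessels, went the other way. Its level was 188, 343 and 321 CPM in corn oil and 145, 162 and 172 CPM in WT mice given CITCO. These groups did not overlap, by a margin of 188 against 172 CPM. The log2 fold change was -0.83 with an interval of -1.25 to -0.41, which did not pass (edgeR's quasi-likelihood test, adjusted p = 0.125). It passed without corn oil replicate 1, the lowest of that group (log2 fold change -1.05, adjusted p = 0.0105), with DESeq2 (adjusted p = 0.0262) and without the filter on low counts (adjusted p = 0.00145).

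Under CITCO, Prox1 stood at 384, 386 and 309 CPM in hCAR/hPXR and at 212, 245.5 and 282 CPM in Car KO/hPXR mice. The WT, Car KO/hPXR and hCAR/hPXR libraries under CITCO followed each other without overlap, from low to high. Neither step of that order passed the test. The log2 fold change was 0.63 between Car KO/hPXR and WT mice, from 0.21 to 1.05 (edgeR's quasi-likelihood test, adjusted p = 0.256), and 0.55 for hCAR/hPXR against Car KO/hPXR mice, from 0.14 to 0.96 (adjusted p = 0.288). In the comparison used in choosing, hCAR/hPXR mice were 2.26-fold above WT mice.

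Both Hhex and Prox1 are also made by endothelial cells. The summed level of 12 endothelial markers, such as Pecam1 and Stab2, was between 443 and 484 CPM in corn oil and between 402 and 482 CPM in WT mice given CITCO, where Hhex was 3.44-fold higher. In hCAR/hPXR mice it was lower, between 359 and 418 CPM, and in Car KO/hPXR mice it lay between 429 and 512 CPM. None of the 12 was at 0 in all libraries, 11 were tested, and 0 were called in the 5 comparisons by edgeR or DESeq2, with 5 of 55 gene comparisons at an unadjusted p under 0.05. The part of these cells in the levels of Hhex and Prox1 was not tested.

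The FOXA proteins are forkhead factors that can bind closed chromatin. Foxa2 was at 25.5, 22.6 and 19.9 CPM in corn oil and at 53.8, 53.2 and 41.5 CPM in WT mice given CITCO. In hCAR/hPXR mice it was at 23.3, 19.7 and 19.2 CPM and in Car KO/hPXR mice at 52.1, 41.8 and 40.2 CPM. The libraries thus lay in a low range, shared by WT corn oil and hCAR/hPXR mice, and in a high range, shared by WT and Car KO/hPXR mice given CITCO, with nothing between 25.5 and 40.2 CPM.

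Foxa2 rose with CITCO in WT mice from 22.7 ± 2.80 to 49.5 ± 6.95 CPM (SD, n = 3), a log2 fold change of 1.12 with SE 0.212 (edgeR's quasi-likelihood test, adjusted p = 0.0292). This call was lost in 5 of the 6 fits without 1 library (adjusted p from 0.0581 to 0.204), in the fit of only both groups compared (adjusted p = 0.0537) and with limma (adjusted p = 0.058). Foxa2 fell in hCAR/hPXR relative to Car KO/hPXR mice, 20.7 ± 2.26 against 44.7 ± 6.45 CPM (SD, n = 3), a log2 fold change of -1.10 with SE 0.219 (edgeR's quasi-likelihood test, adjusted p = 0.0242). That call was lost without any 1 library other than Car KO/hPXR replicate 2, with adjusted p of up to 0.14 (hCAR/hPXR replicates 1, 2 and 3, Car KO/hPXR replicates 1 and 3), and kept under every alternative that used all 6 libraries.

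The comparison that shares no library with the choice of members, Car KO/hPXR mice given CITCO against WT corn oil, gave Foxa2 a log2 fold change of 0.98, from 0.52 to 1.43 (edgeR's quasi-likelihood test, unadjusted p = 0.00025 and adjusted p = 0.221). The adjusted p was between 0.0594 and 0.649 over 12 alternatives. Onecut1 and Foxa2 differed in their order of groups: Car KO/hPXR and WT mice under CITCO overlapped for Foxa2, at a log2 fold change of -0.14 (interval -0.57 to 0.29), but not for Onecut1. The ATTGAT match shown above lies in 1 of the 3 windows of Foxa2, and 6.72% of all windows held ATCAAT on either strand. Any action of ONECUT1 on Foxa2 was not tested.

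Foxa1 was near the limit of detection. It had 3, 9 and 13 counts in corn oil, 26, 25 and 14 in WT mice given CITCO, 14, 6 and 8 in hCAR/hPXR and 3, 4 and 3 in Car KO/hPXR mice. The expression filter asked for 6.5 CPM in 3 libraries, which all 3 WT CITCO libraries reached, with 2 of hCAR/hPXR, 1 of corn oil and 0 of Car KO/hPXR mice. The WT CITCO libraries, at 9.85 to 17.3 CPM, lay above all others. The log2 fold change with CITCO in WT mice was 1.55 with an interval of 0.47 to 2.64 (edgeR's quasi-likelihood test, adjusted p = 0.327). Car KO/hPXR mice were below WT mice under CITCO at -2.50, from -3.75 to -1.26 (edgeR's quasi-likelihood test, adjusted p = 0.0952), a value that rests on the few counts above.

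Foxa3, which lacks the early role of the other FOXA genes and supports glucose metabolism, lay between 111 and 203 CPM in all libraries. Its largest change was -0.47 on the log2 scale in Car KO/hPXR against WT mice under CITCO, with an interval of -0.84 to -0.11 (edgeR's quasi-likelihood test, adjusted p = 0.361). All 5 tested comparisons overlapped.

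**Figure D2:**
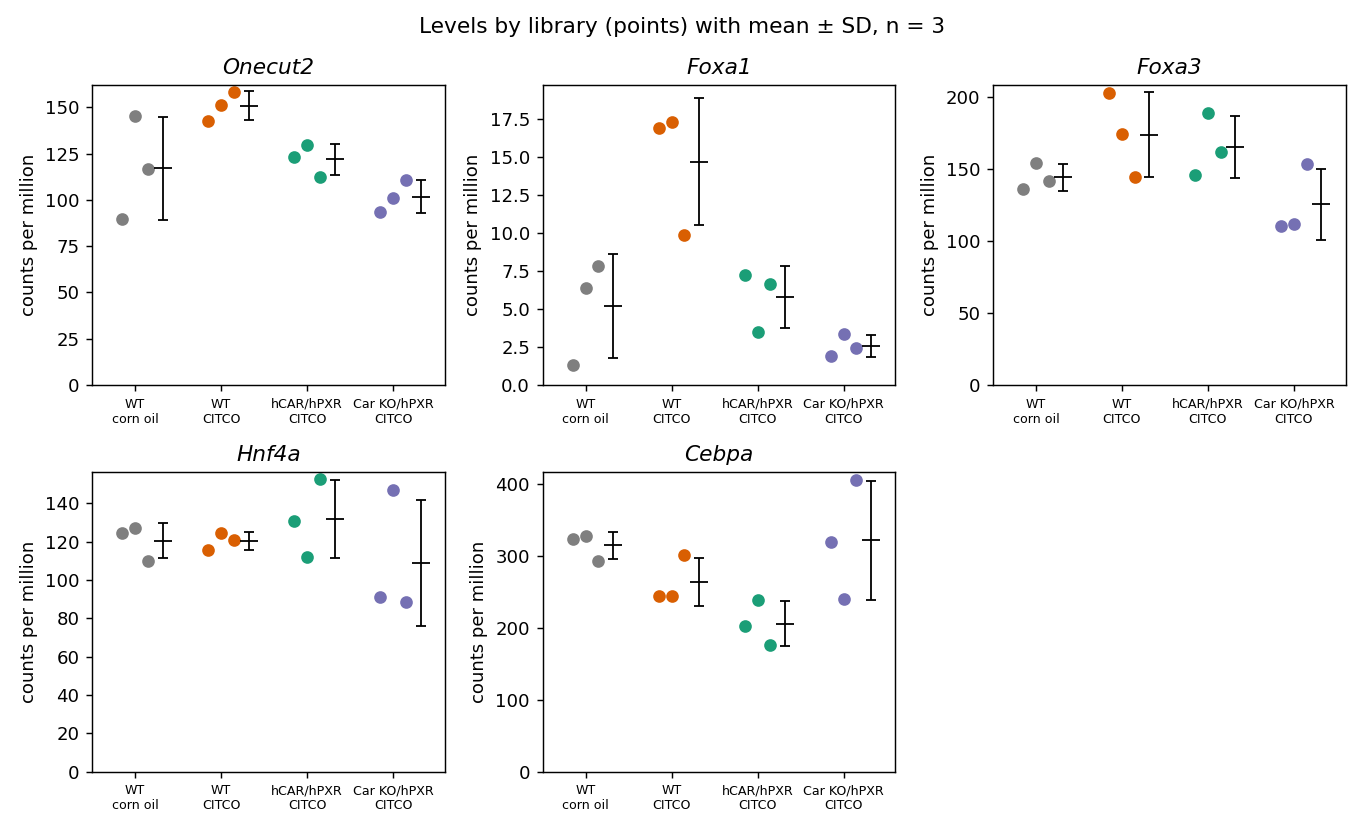
Levels of Onecut2, Foxa1, Foxa3, Hnf4a and Cebpa in CPM (vertical axes, from 0) in each of the 12 libraries (coloured points), with group means and SDs in black. Foxa1 stayed under 18 CPM in every library, and the groups of Foxa3 and Hnf4a overlapped in all comparisons.

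Hnf4a, a nuclear receptor required for most of the mature hepatocyte programme, had a mean of 120.4 ± 9.22 CPM in corn oil and 120.3 ± 4.54 CPM in WT mice given CITCO (SD, n = 3). The log2 fold change between them was 0.00, with an interval of -0.39 to 0.39. Over the 5 tested comparisons its log2 fold changes lay between -0.15 and 0.28, with intervals reaching from -0.55 to 0.67. Its libraries lay between 88.7 CPM in Car KO/hPXR replicate 3 and 153 CPM in hCAR/hPXR replicate 3. The antisense gene Hnf4aos had between 6 and 34 counts and does not reach the last exon.

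Cebpa encodes C/EBPα, a leucine zipper factor that restrains hepatocyte division and drives metabolic genes. It was at 323, 327 and 293 CPM in corn oil and at 244, 244 and 302 CPM in WT mice given CITCO, which overlapped. In hCAR/hPXR mice it was at 203, 239 and 176 CPM and in Car KO/hPXR mice at 319.6, 239.6 and 406 CPM. The hCAR/hPXR libraries were thus below every library of the other groups, next to a Car KO/hPXR library that was higher by less than 1 CPM. The log2 fold change was -0.61 against corn oil, from -0.99 to -0.23 (edgeR's quasi-likelihood test, adjusted p = 0.154), and -0.64 against Car KO/hPXR mice, from -1.02 to -0.26 (adjusted p = 0.147). DESeq2 called both (adjusted p = 0.0282 and 0.0248).

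**Figure D3:**
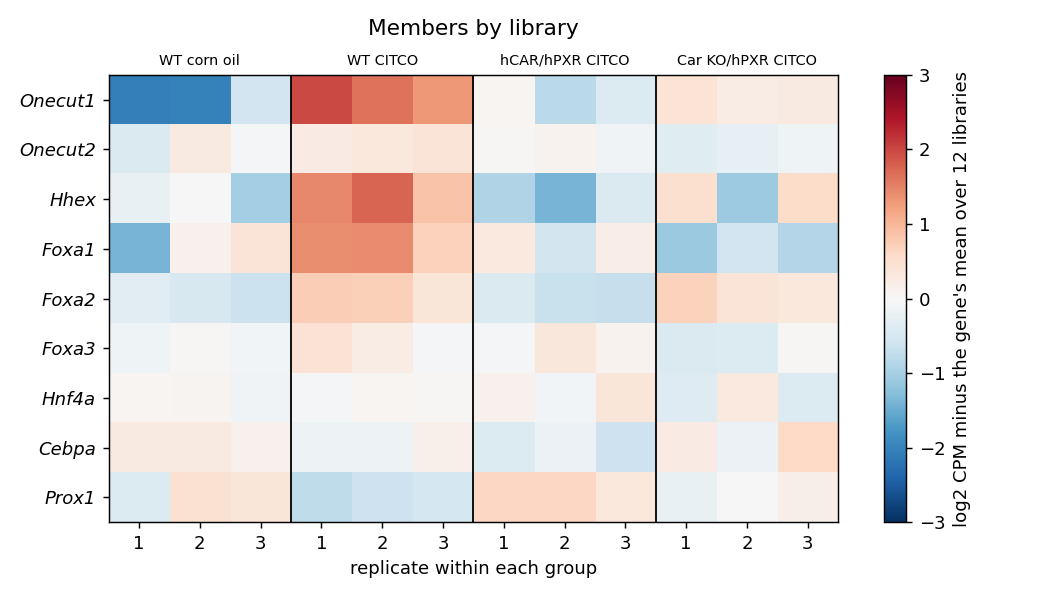
Log2 CPM of the 9 members (rows) in the 12 libraries (columns, by group and replicate), each minus the gene's mean over the libraries, red above and blue below that mean. Onecut1, Hhex, Foxa1 and Foxa2 were above their means in the 3 libraries of WT mice given CITCO and Prox1 was below its mean there, while Hnf4a and Foxa3 stayed pale.

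In the edgeR fit of all 12 libraries, WT mice with and without CITCO had the most members called, which was not so with limma. Of the 9 members, 3 were called, all higher (Onecut1, Hhex and Foxa2), where 0.233% of all genes tested were called. The libraries did not overlap for 5 members, 4 higher (Onecut1, Hhex, Foxa1 and Foxa2) and 1 lower (Prox1), against 14.7% of all genes. The median log2 fold change of the members was 0.37 and that of all genes was 0.00. An unadjusted p under 0.05 was found for 6 members, against 9.13% of all genes. DESeq2 called 4 members, adding Prox1, against 0.500% of the genes with an adjusted p, and limma called 1, against 0.0728%. WT mice given CITCO were part of the comparison known when the members were chosen. The shares of members here, and in the comparisons below that include WT CITCO or hCAR/hPXR mice, are thus not independent of that choice.

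In Car KO/hPXR mice given CITCO against WT corn oil, edgeR called 0 of 9 members, and 0.0465% of all genes. An unadjusted p under 0.05 was found for 2 members and 5.60% of all genes. DESeq2 called 1 member and 0.207% of genes, and limma 0 members and 0.0224%. Libraries did not overlap for 2 members, Onecut1 and Foxa2, both higher, against 11.6% of all genes. In hCAR/hPXR mice against WT corn oil, edgeR called 0 members, where 0.989% of all genes were called, with 2 members and 10.9% of genes at an unadjusted p under 0.05. DESeq2 called 1 member and 3.75% of genes, and limma 0 members and 0.353%. Only Cebpa, lower in hCAR/hPXR mice, had libraries that did not overlap, 1 of 9 members against 16.2% of all genes.

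Between Car KO/hPXR and WT mice under CITCO, edgeR again called 0 members, where 0.256% of all genes were called, with 6 members and 9.30% of genes at an unadjusted p under 0.05. DESeq2 called 2 members and 1.88% of genes, and limma 1 member and 0.0840%. For 5 members the libraries did not overlap, against 14.2% of all genes. Onecut1, Onecut2, Hhex and Foxa1 were lower in Car KO/hPXR mice and Prox1 was higher. For hCAR/hPXR against Car KO/hPXR mice 1 member, Foxa2, was called, against 0.582% of all genes, and 5 members and 10.6% of genes had an unadjusted p under 0.05. DESeq2 called 2 members and 2.46% of genes, and limma 1 member and 0.241%. There 6 members did not overlap, against 15.1% of all genes, with Onecut1, Foxa2 and Cebpa lower and Onecut2, Foxa1 and Prox1 higher in hCAR/hPXR mice.

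In the comparison used in choosing, hCAR/hPXR against WT mice under CITCO, 7 of 9 members did not overlap, and 13.6% of all genes did not. Onecut1, Onecut2, Hhex, Foxa1, Foxa2 and Cebpa were lower in hCAR/hPXR mice and Prox1 was higher. The log2 fold changes ran from -2.33 for Hhex to 1.18 for Prox1, with -1.34 for Foxa1, -1.25 for Foxa2, -0.35 for Cebpa and -0.31 for Onecut2. Foxa3 and Hnf4a stood at -0.07 and 0.13.

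**Figure D4:**
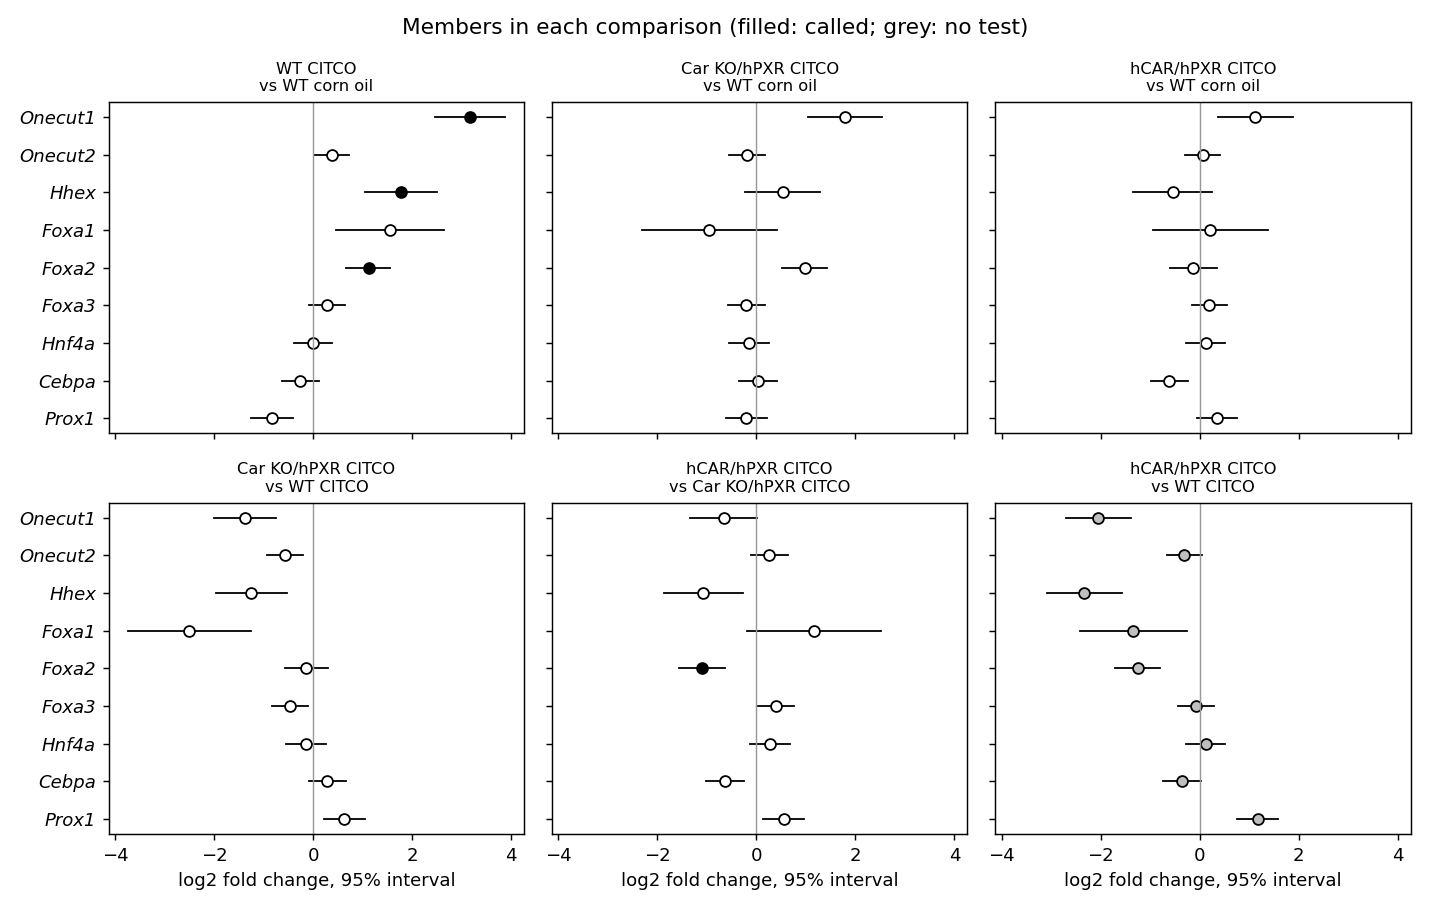
Log2 fold change of each member (points) with its 95% interval (lines) in the 6 comparisons, the first-named group over the second, from the edgeR fit of all 12 libraries. Filled points passed the test (Onecut1, Hhex and Foxa2 in WT CITCO against WT corn oil, and Foxa2 in hCAR/hPXR against Car KO/hPXR mice), open points did not, and the grey points of the comparison used in choosing carry no test.

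Lists of genes around these factors were counted over the 5 tested comparisons. Of the gene comparisons of all genes together, edgeR called 0.421%, 9.12% had an unadjusted p under 0.05, DESeq2 called 1.35% and limma 0.155%. Of 36 other hepatocyte transcription factors, such as Nr5a2 and Xbp1, 30 were tested and edgeR called 0 in the 5 comparisons. Of their 150 gene comparisons, 27 had an unadjusted p under 0.05, DESeq2 called 4 and limma 0. The medians of their log2 fold changes were between -0.13 and 0.05, beside medians of all genes between 0.00 and 0.01. Among them was Foxq1, a forkhead factor, with a log2 fold change of 1.76 with CITCO in WT mice (edgeR's quasi-likelihood test, adjusted p = 0.125), called in 2 of 12 alternatives.

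Of 9 genes regulated by ONECUT1, 7 were tested. In WT mice given CITCO, where Onecut1 was 8.99-fold above corn oil, 0 of them were called, 3 had a positive and 4 a negative log2 fold change, and their median was -0.02. Over the 5 comparisons 2 of their 35 gene comparisons were called, both lower, 11 had an unadjusted p under 0.05, and DESeq2 called 3 and limma 0. With CITCO in WT mice G6pc, glucose 6-phosphatase, was at -0.91 (edgeR's quasi-likelihood test, adjusted p = 0.381). Slc2a2, the hepatocyte glucose transporter GLUT2, was at -0.02 there. Against WT corn oil, G6pc was at -1.11 in hCAR/hPXR mice (edgeR's quasi-likelihood test, adjusted p = 0.175) and at -0.18 in Car KO/hPXR mice. Slc2a2 fell in hCAR/hPXR relative to Car KO/hPXR mice, with levels of 202, 245 and 233 against 363, 331 and 435 CPM and a log2 fold change of -0.73 (edgeR's quasi-likelihood test, adjusted p = 0.0412), a call lost in 7 of 12 alternatives (adjusted p of up to 0.237), among them the fits without any 1 library other than Car KO/hPXR replicate 2.

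Cyp7a1, the rate-limiting enzyme of bile acid synthesis, stands on both the ONECUT1 list and that of HHEX and PROX1. It was at 55.1, 96.6 and 101 CPM in corn oil and at 24.9, 38.8 and 24.2 CPM in hCAR/hPXR mice, and fell between them by 1.51 on the log2 scale (edgeR's quasi-likelihood test, adjusted p = 0.0304), a call lost in 5 of 12 alternatives (adjusted p of up to 0.171), which were limma and the fits without corn oil replicates 2 or 3 or hCAR/hPXR replicates 1 or 3. With CITCO in WT mice its log2 fold change was 0.09. The other tested HHEX and PROX1 genes, among them Slc10a1 and Kdr, were not called. Of the 30 gene comparisons of this list 1 was called, 8 had an unadjusted p under 0.05, and DESeq2 called 1 and limma 0.

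Of 11 tested FOXA targets, such as Ttr, Tat and Pck1, edgeR called 0 in 55 gene comparisons, with 11 at an unadjusted p under 0.05, 1 called by DESeq2 and 0 by limma. Igfbp1 had the largest log2 fold change of this list in the tested comparisons. It was at -1.50 with CITCO in WT mice (edgeR's quasi-likelihood test, adjusted p = 0.138). In Car KO/hPXR against WT mice under CITCO it was at 1.47 (edgeR's quasi-likelihood test, adjusted p = 0.114). In hCAR/hPXR mice it was at 1.22 against corn oil and 1.25 against Car KO/hPXR mice (edgeR's quasi-likelihood test, adjusted p = 0.107 and 0.121). In the comparison used in choosing, Igfbp1 was at 2.72. Of the 100 gene comparisons of 20 HNF4A targets, edgeR called 1, with 21 at an unadjusted p under 0.05, 5 called by DESeq2 and 0 by limma. Apom, an apolipoprotein of HDL, rose in hCAR/hPXR mice given CITCO relative to WT corn oil, from 101, 90.2 and 84.5 to 189, 169 and 184 CPM, a log2 fold change of 0.97 (edgeR's quasi-likelihood test, adjusted p = 0.0303), a call lost with limma and without any 1 library (adjusted p of up to 0.173). Hnf4a itself was at 0.13 in that comparison.

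Of 11 C/EBPα targets, Hp and Orm1 were called, in 3 of 55 gene comparisons, with 15 at an unadjusted p under 0.05, 5 called by DESeq2 and 3 by limma. Both are plasma proteins of the acute phase that C/EBP factors drive together with inflammatory signals. Hp, haptoglobin, was at 6134, 3183 and 3151 CPM in hCAR/hPXR mice, against 1397, 1510 and 1459 in corn oil and 1365, 1260 and 1315 in Car KO/hPXR mice. Its log2 fold changes were 1.51 and 1.66 (edgeR's quasi-likelihood test, adjusted p = 0.00722 and 0.00601). The call against corn oil was lost without corn oil replicates 2 or 3 (adjusted p of up to 0.0539) and that against Car KO/hPXR mice without Car KO/hPXR replicate 3 (adjusted p = 0.0622). Orm1 rose against corn oil at 1.11 (edgeR's quasi-likelihood test, adjusted p = 0.0343), a call lost without hCAR/hPXR replicate 1 (adjusted p = 0.207) or without any 1 corn oil library, and reads of its near-identical copies could be split between them. In WT mice given CITCO, Hp was at 3553, 2616 and 1613 CPM and Orm1 at 1710, 1594 and 906 CPM. For both genes these libraries overlapped those of hCAR/hPXR mice, of which replicate 1 was the highest of the study. Both genes had their highest mean in hCAR/hPXR mice, where the Cebpa level was lowest. Cebpb, another C/EBP gene, was not called in hCAR/hPXR mice. It was at 0.74 against corn oil and 0.84 against Car KO/hPXR mice (edgeR's quasi-likelihood test, adjusted p = 0.344 and 0.303). Cebpg was at 0.25 and 0.23 there. A relation of Hp and Orm1 to Cebpa or to these genes was not tested.

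**Figure D5:**
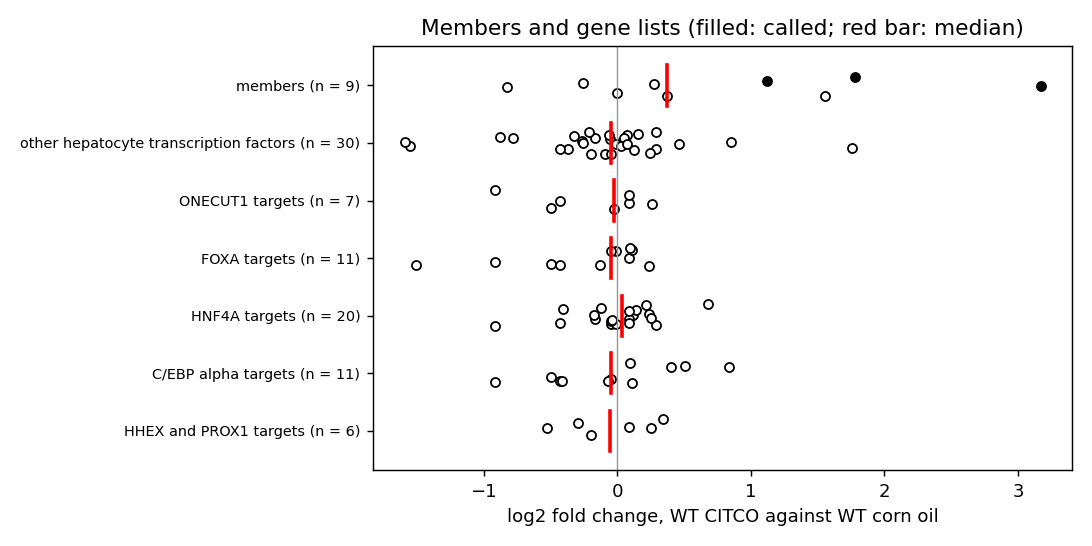
Log2 fold change with CITCO in WT mice (horizontal axis) of the 9 members and of the tested genes of 6 lists (points), with the median of each in red, filled where called. The called points are Onecut1, Hhex and Foxa2, and the list medians lie between -0.05 and 0.04. Some genes stand on more than 1 list.

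Markers of other cells were checked as well. Of 10 genes of bile duct cells, where Onecut1 and Onecut2 are also made, 1 was tested and 1 was at 0 in all libraries, and their summed level was between 16.2 and 36.2 CPM over the 12 libraries, with 16.2 to 31.8 CPM in WT mice given CITCO. Of 10 genes of the fetal liver, 1 was tested. The Kupffer cell markers summed to 286 to 352 CPM in corn oil, 334 to 510 in WT mice given CITCO, 444 to 582 in hCAR/hPXR and 372 to 407 in Car KO/hPXR mice. Of them Marco, a scavenger receptor, rose in hCAR/hPXR mice relative to corn oil, at a log2 fold change of 1.82 (edgeR's quasi-likelihood test, adjusted p = 0.0202). Alas2, of red blood cells, fell there by 1.01 on the log2 scale (adjusted p = 0.0264). The call of Marco was lost without corn oil replicates 2 or 3 or hCAR/hPXR replicates 1 or 3 (adjusted p of up to 0.12), and that of Alas2 without any 1 library other than hCAR/hPXR replicate 2 (adjusted p of up to 0.159). Markers of lymphatic endothelium, stellate cells and lymphocytes had no called gene by edgeR, DESeq2 or limma. An unadjusted p under 0.05 was found in 0 of 10, 6 of 35 and 1 of 5 of their gene comparisons. For Kupffer and red blood cell markers it was found in 10 of 50 and 6 of 25, against 9.12% for all genes. The part of these cells in the results was not tested.

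The genes most like Onecut1 in pattern were found by Pearson's r of log2 CPM over the 12 libraries, which share 4 group means. They were Pomgnt1 (r = 0.925), Gbp11 (0.889), Il18bp (0.867), Abhd17b (0.862) and Cish (0.842). For Hhex they were Phlda1 (0.876), Foxq1 (0.864), Glmp (0.858), Rpl27-ps1 (0.851) and Cish (0.844). Cish, a feedback inhibitor of cytokine signalling, stands on both lists. It was at 4.93, 2.12 and 1.21 CPM in corn oil, 55.8, 42.9 and 40.8 in WT mice given CITCO, 4.14, 2.89 and 3.34 in hCAR/hPXR and 30.5, 9.19 and 12.3 in Car KO/hPXR mice. Rpl27-ps1 is a pseudogene of a ribosomal protein gene whose reads cannot be told apart with certainty from those of similar copies. It was at 0 CPM in every WT corn oil and hCAR/hPXR library. Its mean over the 12 libraries was 5.33 CPM, and those of Pomgnt1 and Gbp11 were 8.75 and 7.22 CPM.

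Among the members, r of log2 CPM over the 12 libraries was 0.77 between Onecut1 and Foxa2, 0.77 between Hhex and Foxa2 and 0.64 between Onecut1 and Hhex. Prox1 stood at -0.8 with Hhex, -0.8 with Foxa2 and -0.6 with Onecut1. After the group means were taken out these values were 0.01, 0.47, -0.14, -0.22, -0.53 and 0.21, in the same order. The 12 libraries include those of the comparison known when the members were chosen. Values of r over all 12 are thus not independent of that choice. For Onecut1 and Foxa2 the value within groups was near 0.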

How the data were processed

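Liver RNA from 12 mice in 4 groups was sequenced from transcript 3' ends (Lexogen QuantSeq). As deposited, the tables held expected counts (STAR alignment to GRCm38, then RSEM, not normalized) and log2-scale values from DESeq2's variance-stabilising transformation. Counting by strand was not given in the sources used here. Rounded counts were fitted with edgeR 4.0.16 under R 4.3.3 (expression filter, TMM, quasi-likelihood test, all 12 libraries, 1 mean per group). Calls needed a fold change over 1.5 at an adjusted p (Benjamini-Hochberg) under 0.05. Intervals of 95% used the fit's degrees of freedom. Levels are CPM, and correlations used log2 CPM with a prior count of 2. Alternatives used DESeq2 1.42.0 and limma 3.58.1. On simulated counts for Car KO/hPXR CITCO against WT corn oil (8352 genes tested), 87% of changed genes at a log2 change of 2 were recovered, with 8 false calls among 176. The simulation changed 200 genes, whereas 4 were called in the data. Onecut1 and Foxa2 stood at 1.79 and 0.98 in that comparison, so the 87% need not hold for them.

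The members and lists were chosen with earlier results of these data known. Besides members, Nr1i2 and Nr1i3, the genes named were called list genes (at most 4 a list, or 2 for markers) and the 5 most correlated with Onecut1 or Hhex. Other list genes illustrate their lists and were named after their values were seen. The dose is that of the sample labels, and the study's methods name a higher CITCO dose beside it for short-term treatment. Replicates are separate mice.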

Additional observations from a re-analysis of the deposited data

How the results depend on the processing

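Over 12 alternatives, no log2 fold change of Onecut1, Hhex, Foxa2 or Prox1 changed sign. The signs that changed belonged to values that were not called. Hnf4a with CITCO in WT mice was 0.00 with other size factors, DESeq2 and limma and -0.06 to 0.04 without 1 library. Also without 1 library, hCAR/hPXR against WT corn oil was -0.10 to 0.24 for Onecut2 and -0.30 to 0.70 for Foxa1, hCAR/hPXR against WT under CITCO was -0.19 to 0.05 for Foxa3, and Car KO/hPXR against WT corn oil was -0.17 to 0.20 for Cebpa. With CITCO in WT mice Slc2a2 was -0.11 to 0.09 and Cyp7a1 -0.22 to 0.42. Of the 9 members, WT CITCO against WT corn oil called 3, and 1 with limma on the deposited values and 1 to 3 without 1 library. Car KO/hPXR CITCO against WT corn oil called 0, and 1 with DESeq2, 1 without the count filter and 0 to 1 without 1 library. The numbers were the same (0, 1, 1 and 0 to 1) for hCAR/hPXR CITCO against WT corn oil. Car KO/hPXR against WT under CITCO called 0, and 2 with DESeq2, 2 in the fit of only both groups, 3 without the filter, 1 with limma and 0 to 1 without 1 library. The hCAR/hPXR against Car KO/hPXR comparison called 1, and 2 with DESeq2, 2 without the filter and 0 to 2 without 1 library. The causes were not tested, except that a fit without 1 library has fewer samples. Without the filter, all genes called in WT CITCO against WT corn oil went from 20 to 179.

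With the replicate number as a block, 2, 0, 0, 0 and 1 members were called in these comparisons, in that order. Hhex with CITCO in WT mice was lost (adjusted p = 0.0511), and no other member changed its call. Samples sharing a number did not deviate together (correlations from -0.057 to 0.075), so the number marks no known pairing. Counts of 3 to 26 limit Foxa1.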
